A study of Mus musculus with 6 samples.

Results

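The enzymes that write, copy and remove DNA methylation were followed in the embryonic mouse lens. The set was chosen by function and holds 8 genes, of the 13024 genes in the count table: Dnmt1, Uhrf1, Dnmt3a, Dnmt3b, Tet1, Tet2, Tet3 and Tdg. All 8 were found in the table, and 7 of them were among the 12879 genes that passed the filter on low counts. Tdg did not pass it.

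RNA was sequenced from lenses of E14.5 embryos, in 3 control pools and 3 pools labelled as the Gata3 conditional knockout (CKO). Each pool held 10 lenses from 5 embryos, on a mixed C57BL/6 and FVB background. The CKO embryos were Gata3 f/f, with loxP sites around exon 4, and carried Pax6-Cre, whose enhancer and promoter drive Cre in the precursors of lens and cornea in the head ectoderm, and in scattered cells of the retina. The control genotype is given in the study both as Gata3 f/wt without Cre and as Gata3 f/f, and the sample labels say wild type, so these pools are called control. As the CKO pools alone carried Cre, an effect of Cre and an effect of the Gata3 deletion cannot be told apart.

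DNA methylation is the addition of a methyl group to cytosine, in mammals mostly where a guanine follows (CpG). Dnmt3a and Dnmt3b set new methylation marks. After replication the new strand lacks the mark, Uhrf1 binds such half-methylated sites, and Dnmt1 is brought there to copy the mark. The Tet enzymes oxidise methylcytosine, Tdg cuts out the most oxidised forms, and base excision repair fills in an unmodified cytosine. In the lens, dividing epithelial cells lie in front of fibre cells that have left the cell cycle, fill with crystallins and later lose their nuclei.

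The promoters of the members were searched for the letters TTTCGCGC, TTTCCCGC and TTTGGCGC on both strands, which are forms of the site of E2F, a factor family known for genes of DNA replication. The window ran from 250 bases before to 50 bases after each RefSeq start (GRCm38.p6). Of 32851 windows in the mouse genome, 1.85% held one of these forms, and of 10006 tested genes with a window, 4.11% did. All 8 members had a window, and the letters were found in those of Dnmt1 and Uhrf1, the pair that copies methylation at replication. The matches are shown because they set this pair apart from the other members in sequence, and the capitals mark the matched letters.
Dnmt1, chr9:20952824-20952853, reverse strand: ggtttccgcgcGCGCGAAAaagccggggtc
Dnmt1, chr9:20952574-20952603, reverse strand: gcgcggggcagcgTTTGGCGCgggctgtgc
Uhrf1, chr17:56304117-56304146, forward strand: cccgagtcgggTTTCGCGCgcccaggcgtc
The upper Dnmt1 run holds the letters of TTTCGCGC on the opposite strand. These are matches of letters and were not tested as binding sites.

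The same windows were searched on both strands for the site letters of GATA factors, GATAA or GATAG after A or T, which 29.8% of all windows and 21.0% of tested genes held. Among the members, 1 Dnmt1 window held them, upstream of the Dnmt1 window with the E2F letters. It had 2 CpG, against 33 in that other window, and which start the lens uses was not tested. The match is shown because Gata3 is the deleted factor.
Dnmt1, chr9:20960040-20960069, reverse strand: ccagtttccatcCTATCTctgtttgctcct
The member windows had a median of 26 CpG, against 7 over all windows, which include those of genes not tested here. The median over tested genes alone is not given here, so this does not set the members apart from them.

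Libraries held 15157230 to 18811104 counted fragments. The targeted gene, Gata3, had 202, 386 and 156 counts in the control pools but 910, 1064 and 894 in those labelled CKO. The count of the whole gene was thus higher in the CKO pools. Only exon 4 is flanked by loxP sites, and these counts do not show which exons were read, so they do not test the deletion. The study's own checks of the exon 4 deletion, on DNA and RNA, were not analysed here. Control replicate 2 stood apart, with a summed level of 17 lens fibre markers of 103631 CPM (counts of a gene scaled to a common library size), against 26176 to 50893 in the other libraries. Markers of both lens cell types were present in each library, with those of lens epithelium at a summed 1724 to 2835 CPM. In control replicate 2 the summed level of 12 retina markers was 1321 CPM, against 2041 to 2990. Summed markers of mesenchyme were at 2163 CPM in control replicate 1 and 3885 CPM in CKO replicate 2, against 230.2 to 475 in the others. Blood markers summed to 339 to 1437 CPM, vessel markers to 238 to 343, macrophage markers to 72.6 to 156 and pigment cell markers to 69.8 to 341. The part of these other tissues in the members' values was not tested. In pooled tissue, fewer cells of a type and less RNA in each cell cannot be told apart.

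Transcripts of both maintenance enzymes were abundant and lay at similar levels in CKO and control lenses. Dnmt1, the maintenance methyltransferase (chr9:20907209-20959888, reverse strand, mm10), was at 323, 266 and 343 CPM in control replicates 1, 2 and 3, and at 322, 304 and 337 CPM in CKO replicates 1, 2 and 3. Control replicate 2 was the lowest of the 6 and the groups overlapped. The means were 310.4 ± 39.9 CPM (SD, n = 3) in control and 321 ± 16.7 CPM (SD, n = 3) in CKO. The log2 fold change of CKO against control was 0.05 (SE 0.11, 95% interval -0.21 to 0.31, edgeR quasi-likelihood test, adjusted p = 0.9998 over all genes). Uhrf1, the reader of half-methylated sites (chr17:56303321-56323486, forward strand), was at 240, 182 and 285 CPM in control and 254, 244 and 279 CPM in CKO. The lowest value was again control replicate 2, the highest was control replicate 3, and the CKO pools lay between them. Its log2 fold change was 0.14 (SE 0.16, 95% interval -0.25 to 0.52, adjusted p = 0.9998 in edgeR). Without control replicate 2 the values were -0.04 for Dnmt1 and -0.0068 for Uhrf1.

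**Figure D1:**
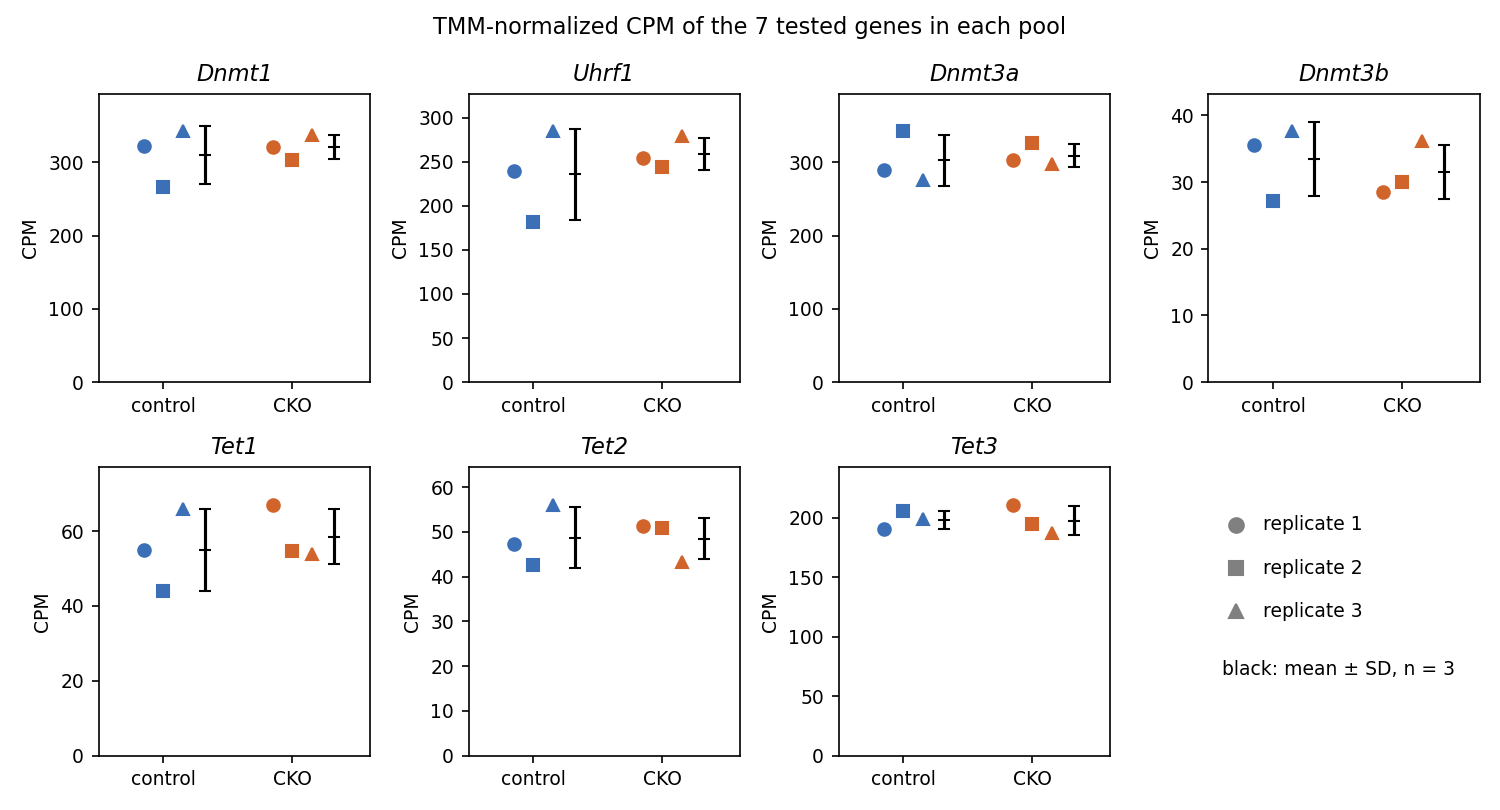
Normalized level (CPM, y axis of each panel) of the 7 tested members in 3 control and 3 CKO libraries (x axis); marker shapes give the replicate number and black marks the mean ± SD. The groups overlap in all 7 panels.

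Of the enzymes that set new marks, Dnmt3a had the higher level and Dnmt3b the lower one, with no difference between the groups beyond the spread of the pools. Dnmt3a (chr12:3806007-3914443, forward strand) was at 289, 342 and 276 CPM in control and 303, 327 and 297 CPM in CKO. Control replicate 2 was here the highest of the 6, the reverse of its place for Dnmt1. The log2 fold change was 0.03 (SE 0.10, 95% interval -0.21 to 0.27). Dnmt3b (chr2:153649450-153687730, forward strand) was at 35.6, 27.1 and 37.6 CPM in control and 28.5, 30.01 and 36.2 CPM in CKO, with the lowest value once more in control replicate 2. Its log2 fold change was -0.09 (SE 0.15, 95% interval -0.45 to 0.28). Both had an adjusted p of 0.9998 in edgeR. Without control replicate 2, the values were 0.14 for Dnmt3a and -0.20 for Dnmt3b. Dnmt3a shares 133 exon bases with the antisense gene Dnmt3aos, and 11.5% of the 50-base words of the longest Dnmt3b transcript also occur in Dnmt3c, so that their counts carry this uncertainty.

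All 3 oxidising enzymes were transcribed, Tet3 at the highest level. Tet3 (chr6:83362373-83459084, reverse strand) was at 191, 206 and 199 CPM in control and 211, 195 and 187 CPM in CKO. It had the narrowest range of the members, with a highest value 1.13 times the lowest, and the groups lay across each other. Its log2 fold change was -0.0054 (SE 0.07, 95% interval -0.18 to 0.17). Tet1 (chr10:62804570-62908996, reverse strand) was at 54.9, 43.9 and 65.9 CPM in control and 67.0, 54.6 and 53.9 CPM in CKO, with a log2 fold change of 0.09 (SE 0.17, 95% interval -0.30 to 0.48). Tet2 (chr3:133463679-133545139, reverse strand) was at 47.4, 42.6 and 56.1 CPM in control and 51.4, 51.0 and 43.2 CPM in CKO, with a log2 fold change of -0.0064 (SE 0.13, 95% interval -0.31 to 0.30). Control replicate 2 was the lowest library for both, and the 3 adjusted p-values were 0.9998 in edgeR. Tet2 shares 43 exon bases with the antisense gene Gm42567.

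Of the 7 members tested, 0 had an adjusted p below 0.05 in edgeR, 0 had an unadjusted p below 0.05, and 0 did with DESeq2 (adjusted p = 0.99985 for each). Over all 12879 genes, edgeR gave 0.00% at the adjusted threshold and 3.55% at the unadjusted one, and DESeq2 gave 0.661%. In 0 members did the control and CKO values fail to overlap, against 8.36% of all genes tested. In exact two-sided permutation tests, p ran from 0.6 for Uhrf1 to 1.0 for Tet2 and Tet3, where 3 pools against 3 can reach 0.1 at the least, and 1.0 after adjustment over the 7. The log2 fold change was above 0 for 4 members and below 0 for 3, with a median of 0.03 beside 0.0019 over all genes. The 95% intervals give the range of fold changes that is compatible with the values of these pools. They reached from 0.731-fold at the lower end, for Dnmt3b, to 1.43-fold at the upper end, for Uhrf1, and were tightest for Tet3, at 0.881-fold to 1.13-fold. A p above the threshold does not show that the levels were equal.

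**Figure D2:**
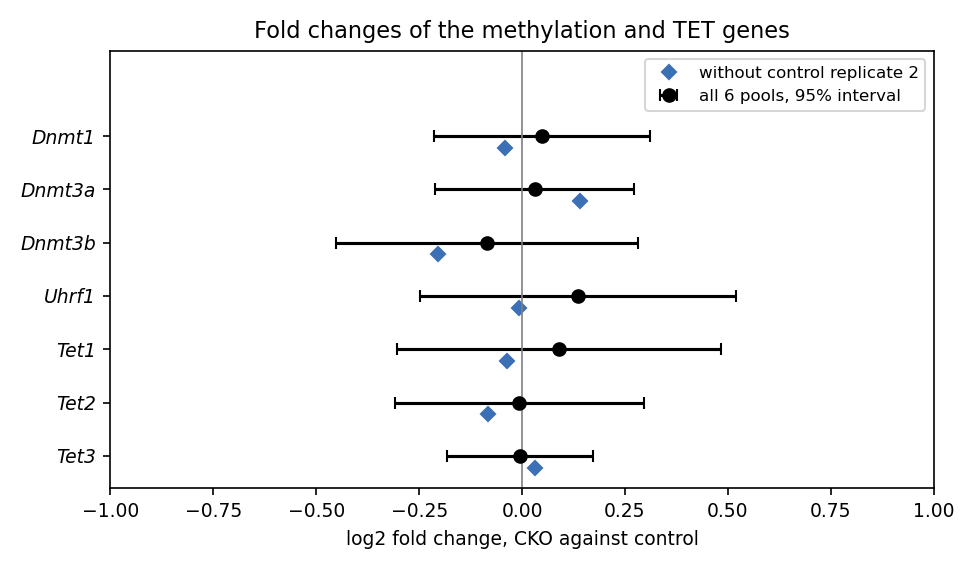
Log2 fold change of CKO against control (x axis) for the 7 tested members, with 95% intervals from edgeR over all 6 libraries in black and the value without control replicate 2 as blue diamonds. All 7 intervals include 0, and the diamonds of Dnmt1, Uhrf1, Tet1 and Tet3 lie on the other side of 0.

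Tdg, the glycosylase that removes oxidised cytosines, was almost without counts. It had 4, 1 and 1 counts in control and 2, 6 and 4 in CKO, or 18 over the 6 libraries, and was too low to test. That is a mean of 0.0236 CPM per kilobase of exon in control and 0.0399 in CKO, although the authors kept in the table only genes with an FPKM above 1 on average in a group. The count and that filter are thus at odds, and the reason was not tested. Tdg is not alone in this, as 42 genes of the same table had 0 counts in all libraries. Of the 50-base words of its longest transcript (3502 bases), 57.1% also occur word for word in other genes, with 47.4% in the pseudogene Tdg-ps and 25.4% in Gm9855. A run of its coding sequence from coding base 1067 is shown because 4 such copies hold the same 30 bases.
Tdg: cctatggggaaaacccatgtaatggggaac
Gm9855 is in the table, with 0 counts in all 6 libraries. Tdg (chr10:82629828-82650799, forward strand) also shares 367 exon bases with Glt8d2 on the opposite strand. How fragments that match several copies were counted is not given in the sources used here, and whether the low count follows Tdg transcription was not tested. A smaller part of Uhrf1 is shared in this way, with 18.0% of its words in Gm5648.

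For each of the 7 tested members, the range over the 3 control pools was wider than the difference between the group means, and control replicate 2 was the lowest library for 5 of them. Control replicate 2 stood at 81.6% of the mean of the other 5 libraries for Dnmt1, at 70.0% for Uhrf1, at 80.8% for Dnmt3b, at 74.1% for Tet1 and at 85.5% for Tet2. Dnmt3a stood at 115% there and Tet3 at 105%. The same library had the highest lens fibre level and the lowest retina level, and its 12 markers of S phase and mitosis summed to 2608 CPM, against 3057 to 3587 in the other libraries. It was also the highest library for summed markers of lens epithelium (2835 CPM), blood (1437 CPM) and macrophages (156 CPM). Which of these moved the members was not tested.

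Relative to that S phase and mitosis sum, Dnmt1 was nearly even. It made up 9.66%, 10.2% and 9.55% of the summed level in control and 10.0%, 9.94% and 9.82% in CKO, with control replicate 2 no longer the lowest. Uhrf1 stood at 7.18%, 6.98% and 7.94% in control and 7.89%, 7.99% and 8.12% in CKO, still lowest in control replicate 2. Dnmt3b, Tet1 and Tet2, like Dnmt1, were no longer lowest there. The lowest share of Dnmt3b was in CKO replicate 1 (0.885%). Those of Tet1 (1.57%) and Tet2 (1.26%) were in CKO replicate 3. Dnmt3a spread further on this scale, from 7.70% to 13.1%, with the highest share in control replicate 2. The S phase and mitosis list itself had 10 of 12 genes above 0 and a median log2 fold change of 0.07, and 0 of the 12 passed edgeR's test at an unadjusted p of 0.05.

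**Figure D3:**
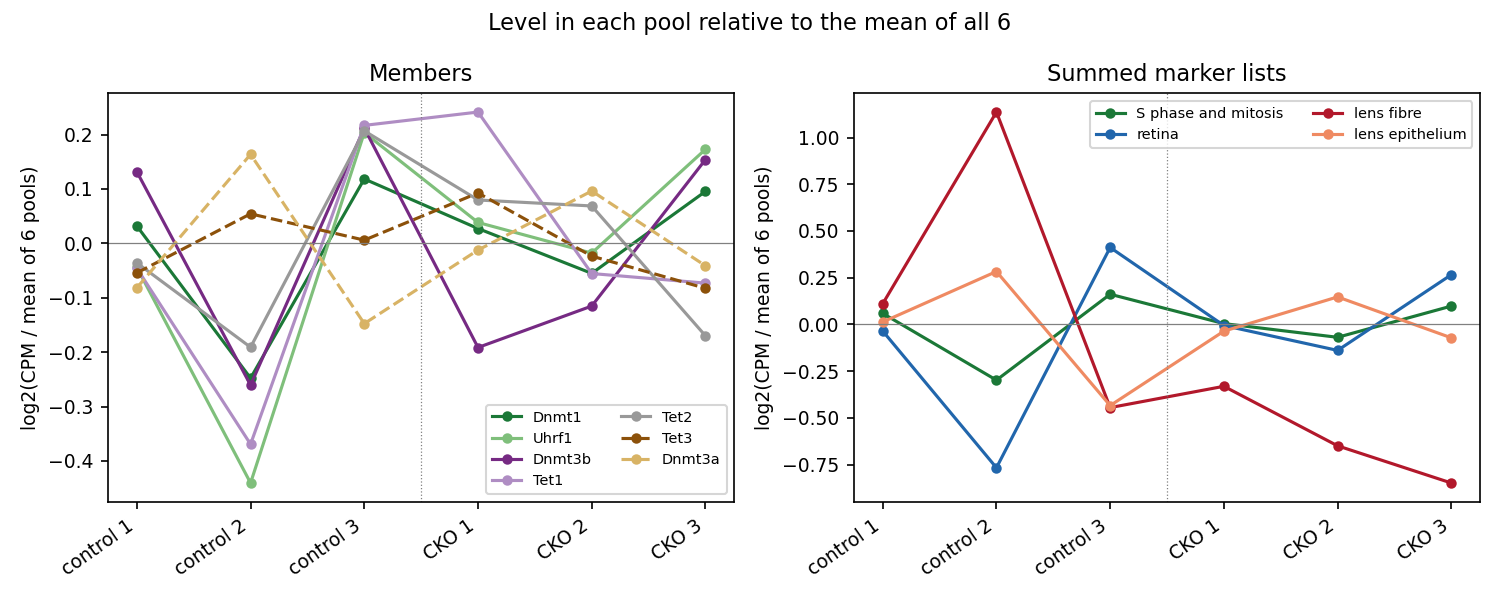
Level in each library relative to the mean of the 6 libraries (y axis, log2 ratio of CPM) for the members on the left and for summed marker lists on the right; the lines join values of one gene or list. Control replicate 2 is low for 5 members, S phase and retina, and high for Dnmt3a, lens fibre and lens epithelium.

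Fits that include marker levels moved the members, and none was called at an adjusted p of 0.05. With the mean level of retina markers and that of mesenchyme markers as covariates, the members' log2 fold changes ran from -0.17 for Dnmt3b to 0.09 for Dnmt3a, while 3.50% of all genes were called. With the mean level of the lens fibre list as the covariate, 3.17% of all genes were called and the members moved further. Dnmt1 was then at -0.29 (edgeR adjusted p = 0.225), Uhrf1 at -0.45 (adjusted p = 0.111) and Dnmt3b at -0.62 (adjusted p = 0.0938), while Dnmt3a was at 0.33 (adjusted p = 0.196). In this fit the 95% intervals of these members left out 0, while those of Tet1, Tet2 and Tet3 included it. Unadjusted p in edgeR was 0.0487 for Dnmt1, 0.0100 for Uhrf1, 0.00663 for Dnmt3b and 0.0368 for Dnmt3a. The share of all genes at such an unadjusted p in this fit is not given here. All 17 lens fibre genes measured had a negative log2 fold change (median -1.38), 12 with an unadjusted p below 0.05, so that this covariate moved with the labels.

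For each member, the 3 tested genes with the most similar profile over the 6 libraries were found by Pearson's r among 12878 genes. Dnmt1 was closest to Snx16 (r = 0.996), Lbh (0.996) and Cntn4 (0.995). Uhrf1 was closest to Nefm (0.998), a neurofilament gene, Pou4f2 (0.998), a retinal ganglion cell factor that is also on the retina list, and Iglon5 (0.997). Dnmt3b was closest to Ppp2r5d, Gmnn and 2010315B03Rik, and Dnmt3a to Pdcd4, Nkrf and Sphk2. Tet1 was closest to Mfsd6, Adcy1 and Erc1, Tet2 to Prkcb, Slc22a15 and Tubgcp6, and Tet3 to Mtdh, Fam188a and Sh3bp5l. The values describe the 6 libraries, which share their differences in tissue content, and the highest of many such values is large in so few libraries.

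Per length, the maintenance pair was the most abundant. Levels were divided by the exon length of each gene (CPM per kilobase, mean ± SD of 6 libraries). Uhrf1 was at 58.0 ± 8.62 and Dnmt1 at 42.8 ± 3.79. Dnmt3a followed at 18.4 ± 1.48, Tet3 at 11.9 ± 0.55, and Dnmt3b at 6.37 ± 0.88. Tet1 was at 3.67 ± 0.56 and Tet2 at 2.88 ± 0.31. Each neighbouring pair stood in this order in 6 of 6 libraries, and the ranges overlapped only for Uhrf1 with Dnmt1 and for Tet1 with Tet2. With the length of the longest transcript in place of all exons, Tet2 (5.29) stood above Tet1 (3.95), so the order of this pair depends on which length is used.

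The balance between members was compared as count ratios within each library. The count of Dnmt1 over Uhrf1 was 1.35, 1.46 and 1.20 in control and 1.27, 1.24 and 1.21 in CKO. Dnmt3a over Dnmt3b was 8.11, 12.6 and 7.33 in control and 10.7, 10.9 and 8.22 in CKO, with the widest spread in control. Tet3 over Tet1 was 3.47, 4.68 and 3.02 in control and 3.15, 3.57 and 3.47 in CKO. With Dnmt3a over Dnmt1 and Tet1 over Tet2, 5 ratios were tested, and each had an adjusted p of 0.9 (exact two-sided permutation test).

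The partners of these enzymes were examined in 6 lists of 49 genes, of which 46 were in the table and tested. Of the 46, 0 had an adjusted p below 0.05 in edgeR, 2 had an unadjusted p below 0.05 (4.35%, against 3.55% of all genes), and DESeq2 called 1. Both were lower in the CKO libraries, against 2.24% of all genes, and 0 were higher, against 1.30%. The median log2 fold change was 0.01, and 43 of 46 lay within 0.3 of 0. In 4 genes the groups did not overlap (8.70%, against 8.36%): Gadd45b lay lower in CKO (4.69% of all genes did), and Cdca7l, Neil2 and Cxxc4 lay higher (3.67% of all genes did). Dnmt3l, Dppa3 and Wt1 were not analysed here.

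Among the partners of maintenance, which include the clamp Pcna and the remodeller Hells, 0 of 8 had an unadjusted p below 0.05. Their log2 fold changes ran from -0.13 for Cdca7 to 0.22 for its relative Cdca7l, with a median of 0.01. The 8 partners of new methylation, among them histone methyltransferases whose marks guide the Dnmt3 enzymes, ran from -0.07 for Nsd1 to 0.09 for Ehmt2, with a median of 0.01. The 7 readers of methylated CpG ran from -0.10 for Zbtb38 to 0.29 for Zbtb4, with a median of 0.03. In neither of these 2 lists did a gene have an unadjusted p below 0.05.

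The repair and Gadd45 list had 2 of its 13 genes at an unadjusted p below 0.05, both of the Gadd45 family of stress-induced proteins that have been linked to demethylation. Gadd45b was at 6.65, 14.5 and 4.92 CPM in control and 2.72, 2.29 and 1.67 CPM in CKO. The groups did not overlap, with the CKO pools lower and control replicate 2 the highest of the 6. The log2 fold change was -1.96 (SE 0.45, adjusted p = 0.638 in edgeR, 0.00717 in DESeq2), and it was -1.37 without control replicate 2. With the lens fibre covariate it was -0.20 (adjusted p = 0.811 in edgeR), and with the retina and mesenchyme covariates -1.54 (adjusted p = 0.000111 in edgeR). The study lists Gadd45b among its changed genes from these same libraries, so the value is not independent evidence. Gadd45g was at 18.6, 29.9 and 11.1 CPM in control and 8.30, 11.7 and 9.11 CPM in CKO, where the groups overlapped. Its log2 fold change was -1.03 (SE 0.36, adjusted p = 0.9998 in edgeR), -0.60 without control replicate 2 and 0.26 with the lens fibre covariate. Gadd45a, of the same family and also on the list, did not go this way. It was at 86.4, 56.9 and 126 CPM in control and 90.5, 84.9 and 111 CPM in CKO, with overlapping groups. Its log2 fold change was 0.09 (SE 0.28, adjusted p = 0.9998 in edgeR). With Gadd45a, the other 11 genes of this list ran up to 0.23, for the glycosylase Neil1.

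The partners and cofactors of the Tet enzymes had a median of 0.02 over 5 genes, from -0.07 for Idh2, which makes their cofactor, to 0.39 for Cxxc4. Cxxc4, a CpG-binding protein, was at 27.1, 20.2 and 34.0 CPM in control and 36.4, 35.9 and 34.1 CPM in CKO. The CKO pools lay higher without overlap, by a narrow margin over control replicate 3. Its adjusted p was 0.9998 in edgeR. Of 5 genes for the synthesis of the methyl donor, 0 had an unadjusted p below 0.05. Their log2 fold changes ran from -0.09 for Ahcy, which clears the product of methyl transfer, to 0.02 for Mat2a, which makes the donor itself, with a median of -0.09.

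**Figure D4:**
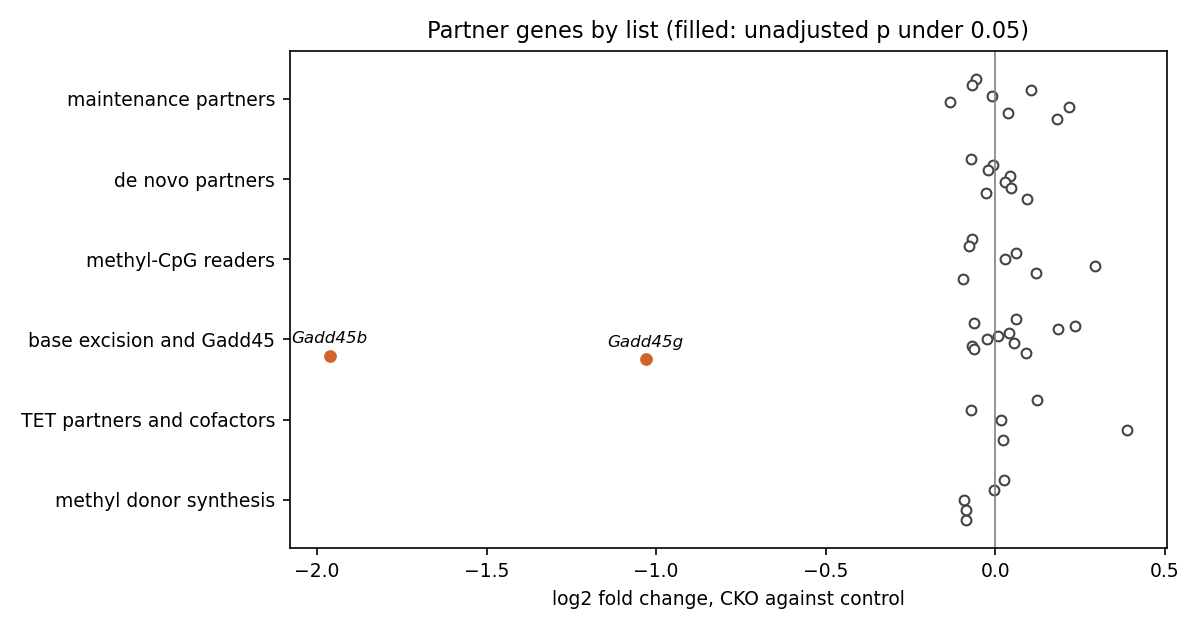
Log2 fold change of CKO against control (x axis) for the 46 tested genes of the 6 partner lists, with filled points for an unadjusted p below 0.05 in edgeR. Gadd45b at -1.96 and Gadd45g at -1.03 lie apart from the other genes.

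Germline genes that promoter methylation keeps silent in body tissues were taken as a readout. Of the 12 genes of this list, 1 was in the table and was tested. Dazl, a germ cell RNA-binding protein, had 88, 73 and 67 counts in control and 40, 91 and 87 in CKO, and the groups overlapped. Its log2 fold change was -0.29 (SE 0.30, adjusted p = 0.9998 in edgeR). Methylation of DNA itself was not measured in these libraries.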

How the data were processed

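The authors deposited raw counts of fragments per gene, made by HTSeq 0.6.1 after alignment with TopHat2 2.0.13 to mm10, according to the submitters' processing notes. Their table was limited to genes whose mean FPKM exceeded 1 in at least 1 of the groups. Strand and overlap settings for the counting are not given in the sources used here. Sample groups came from the sample labels, with the replicate numbers of the titles. Replicates were separate pools, of 15157230 to 18811104 counts. How far the spread between pools and the depth each set the precision was not tested.

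A gene needed 10 or more counts in 3 or more libraries to be tested in edgeR 4.0.16 (R 4.3.3), with TMM factors, a robust quasi-likelihood fit and Benjamini-Hochberg adjustment at 0.05 over all such genes. Standard errors and 95% intervals came from that fit, and CPM used the TMM library sizes. DESeq2 1.42.0, limma 3.58.1 voom, other normalizations and filters, the replicate number as a block, marker covariates and each library left out in turn were alternatives. A fit without control replicate 1 and CKO replicate 2 was chosen after seeing the data. Permutation tests used log2 CPM with an offset of 0.5, and the similarity of profiles used log2 CPM with a prior count of 1. The members and lists were chosen with earlier results of these data known.

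Named were all members, the genes of each partner list with an unadjusted p below 0.05 or the lowest or highest fold change, and the 3 most similar genes. Of the genes first put on the partner lists, 1 was removed and is not reported here. Neil2, Gadd45a, Zfp57, Esam and C1qa were named after their values were seen. The marker lists that are not described elsewhere had median log2 fold changes of -0.30 (8 lens epithelium genes), 0.13 (12 retina genes), 0.57 (11 mesenchyme genes), -0.76 (5 blood genes), -0.42 (8 vessel genes), -0.47 (9 macrophage genes) and 0.06 (6 pigment cell genes). Of these, 1 vessel gene (Esam) and 1 macrophage gene (C1qa) had an unadjusted p below 0.05, both lower in CKO.

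Positions and exon lengths came from GENCODE for GRCm38, the assembly of mm10, and promoter sequences from RefSeq. On simulated data for this comparison, edgeR recovered 70.9% of 199 genes set to differ by 1 on the log2 scale, among 12859. Of its calls there, 7.84% were false. In the measured libraries edgeR called 0 of 12879 genes at an adjusted p of 0.05. Whether the recovery on simulated data holds for the measured libraries was not tested.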

Additional observations from a re-analysis of the deposited data

How the results depend on the processing

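No member was called under 12 alternatives that kept all 6 libraries (smallest adjusted p 0.0938), and 73 of their 84 member values kept their direction. The other 11 lay on the opposite side of 0. With upper quartile factors these were Tet2 at 0.0020 and Tet3 at 0.0033. With library size only they were Dnmt3b at 0.0056, Tet2 at 0.086 and Tet3 at 0.10. With retina and mesenchyme covariates they were Dnmt1 at -0.0079 and Tet3 at 0.016. Those farthest from 0 came with the lens fibre covariate: Dnmt1 -0.29, Uhrf1 -0.45, Tet1 -0.29 and Tet3 0.11. In that fit Gadd45g was at 0.26 and Gadd45b at -0.20. Without control replicate 1 and CKO replicate 2, Dnmt1 was at 0.13, Dnmt3a at -0.032 and Dnmt3b at 0.0076. With 1 library left out, the log2 fold change ran from -0.041 to 0.12 for Dnmt1, -0.0068 to 0.30 for Uhrf1, -0.031 to 0.14 for Dnmt3a, -0.20 to 0.0078 for Dnmt3b, -0.036 to 0.24 for Tet1, -0.082 to 0.11 for Tet2 and -0.055 to 0.033 for Tet3. Over all genes, edgeR called 0, DESeq2 85, library size only 1, the retina and mesenchyme covariates 451, the lens fibre covariate 408, and fits without 1 library 0 to 1 (the 1 without control replicate 3). Among the 46 partner genes, DESeq2 called 1 (Gadd45b), the retina and mesenchyme covariates 3 (Gadd45b, Gadd45g and Zbtb4) and the lens fibre covariate 1 (Zfp57). Members whose groups did not overlap numbered 1 of 7 with library size only (Dnmt3a, against 13.2% of all genes) and 0 to 1 with 1 library left out (Dnmt3a without control replicate 2, against 21.8% of all genes, and Uhrf1 without control replicate 3, against 27.7%). The causes were not tested. Deviations of libraries with the same replicate number correlated at -0.49, 0.09 and 0.44, and those with different numbers at -0.48 to 0.56. So few values show no pairing by number and cannot exclude one. With the replicate block edgeR called 0 genes, Dnmt1 was at 0.05 and Uhrf1 at 0.16. That block used the numbers of the titles, and the sample descriptions number the CKO libraries differently. With the longest transcript as the length, Uhrf1 was at 68.9, Dnmt1 at 53.8, Dnmt3a at 31.6, Tet3 at 18.2 and Dnmt3b at 7.52 CPM per kilobase.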
